A study of Mus musculus with 34 samples.

Results

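Mesothelial cells form the single-layered lining of the abdominal cavity and of the organs in it, visceral fat included. Their RNA was followed through 9 genes, Msln, Upk3b, Upk1b, Lrrn4, Wt1, Krt18, Krt19, Muc16 and Nkain4, which were chosen by name as mesothelial genes. The choice was made with earlier results of these data known. All 9 were found among the 32098 genes listed in each expression table. RNA-seq was done on 34 libraries of the stromal vascular fraction (SVF) from visceral fat. To obtain it, the tissue is digested with collagenase and centrifuged, which leaves fat-filled adipocytes at the top and all other cells in a pellet, here also treated to lyse erythrocytes. All mice were C57BL/6J males (C57BL/6 in the strain label) with no altered allele named, and each was put at 6 weeks of age on a high fat diet (HFD), with 60% of its energy from fat, or on control diet (CHOW), and fasted for 6 hours before harvest. There were 4 CHOW and 6 HFD libraries after 8 weeks of diet (mice 14 weeks old), 5 CHOW and 6 HFD libraries after 20 weeks (26 weeks old), and 7 CHOW and 6 HFD libraries after 34 weeks (40 weeks old). CHOW stood for either of 2 control diets and the labels do not say which mouse ate which, so the diets within CHOW cannot be told apart. Time on diet and age rose together and cannot be told apart either. The labels number the replicates but do not state that each came from its own mouse, so p-values measure the spread between these libraries.

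A mesothelial cell is an epithelial cell of mesodermal origin: it carries keratin filaments and a glycoprotein coat like other epithelia, and nuclear factors of the mesoderm such as WT1. The layer lets organs slide and secretes lubricating fluid. Some of the 9 genes are shared with other cells. Keratins 18 and 19 are made by simple epithelia in general, uroplakins by the bladder lining, and Wt1 also by stromal progenitors of visceral fat and by Sertoli cells of the testis. In a bulk pellet, fewer mesothelial cells and less RNA per mesothelial cell cannot be told apart.

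Levels are given as TPM, a length-corrected share that sums to 1000000 in every library, so levels of different genes can be set side by side, and a share falls when other transcripts take more of the total. TPM keeps no read depth, and the depth per library is therefore unknown. Between 13200 and 17213 genes reached 1 TPM in a library. Genes of other tissues or cells stood out in several libraries. Of these 8 were chosen to be left out together, and are below called the libraries in which other tissues stood out (HFD 8 week replicates 3 and 6, HFD 20 week replicate 5, CHOW 34 week replicates 5, 6 and 7, and HFD 34 week replicates 1 and 2). In HFD 8 week replicate 3 these were 8 seminal vesicle genes, which summed to 123060 TPM, and in replicate 6 erythroid genes, which summed to 267905 TPM. Germ cell genes summed to 12690 TPM in HFD 20 week replicate 5 and to 5156 and 5543 TPM in the 2 HFD libraries of 34 weeks, and adipocyte genes to 14953 to 34573 TPM in the 3 CHOW libraries of 34 weeks. Each count of mesothelial genes below was also made without those 8 libraries. Not among the 8 were CHOW 20 week replicate 5, with erythroid genes at 130031 TPM, and HFD 20 week replicates 3 and 4, with germ cell genes at 2383 and 2994 TPM. HFD replicate 5 was thus the only 20 week library left out with the 8. Differences between groups were tested with limma on log2(TPM + 1) over all genes that passed a filter of 1 TPM, with Benjamini-Hochberg adjustment over those genes, and a gene was called when its adjusted p was under 0.05. All 9 mesothelial genes passed the filter in both tables, and each was above 1 TPM in all 34 libraries except Muc16 in 1 CHOW library of 34 weeks.

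RefSeq promoter windows, which run from 250 bases before to 50 bases after an annotated start (GRCm38.p6), were given for 4 of the 9 genes. They are shown for Upk3b, Lrrn4 and Muc16, 3 of the genes that were lower in HFD at 20 weeks, as described below. The window of Krt18, which was also lower, was searched but is not printed. The first is chr5:136038246-136038545 on the plus strand, the second chr2:132880813-132881112 on the minus strand and the last chr9:18674554-18674853 on the minus strand. Each is printed from 5′ to 3′ on the strand of its gene, with capitals for the letters GGAATG or their complement, the core that TEAD factors bind.
Upk3b: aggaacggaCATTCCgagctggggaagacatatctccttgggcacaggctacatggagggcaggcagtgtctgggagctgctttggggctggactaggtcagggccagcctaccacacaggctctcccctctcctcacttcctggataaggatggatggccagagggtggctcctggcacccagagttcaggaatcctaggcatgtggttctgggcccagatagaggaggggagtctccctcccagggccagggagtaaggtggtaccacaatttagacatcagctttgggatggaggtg
Lrrn4: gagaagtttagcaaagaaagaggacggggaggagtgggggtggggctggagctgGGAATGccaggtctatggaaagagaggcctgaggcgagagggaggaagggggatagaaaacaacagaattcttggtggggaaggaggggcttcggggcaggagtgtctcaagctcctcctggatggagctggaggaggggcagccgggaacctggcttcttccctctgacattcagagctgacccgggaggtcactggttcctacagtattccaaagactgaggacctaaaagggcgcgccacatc
Muc16: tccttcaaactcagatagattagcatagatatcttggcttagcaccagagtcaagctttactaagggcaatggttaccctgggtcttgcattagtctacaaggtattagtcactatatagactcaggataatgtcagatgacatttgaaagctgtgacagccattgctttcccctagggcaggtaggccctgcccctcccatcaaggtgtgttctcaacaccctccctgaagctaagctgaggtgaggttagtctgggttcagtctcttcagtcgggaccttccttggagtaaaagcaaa
The TEAD letters were found once in Lrrn4, at -196 from the start, and once on the other strand in Upk3b, at -241, and in neither Muc16 nor Krt18. Of the 32851 promoter windows given by RefSeq, 14.7% held them on either strand. The other letters searched were TATAAA (held by 13.6% of all windows), GGGCGG (35.7%), CCAAT (37.4%), GTGGGAG for WT1 (9.73%) and AGATAA for GATA factors (11.2%), on both strands, and none of the 4 windows held any of these, so no match overlapped another.

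The highest of the 9 genes was Msln, Upk3b or Wt1 in 31 of the 34 libraries, Nkain4 in 2 and Krt18 in 1, and Muc16 had the lowest median in all 6 groups. In CHOW libraries of 20 weeks the medians ran from 27.3 TPM for Muc16 to 136 TPM for Upk3b, and Upk3b was the highest of the 9 genes in 4 of the 5 libraries. In HFD libraries of the same time they ran from 4.06 TPM for Muc16 to 54.4 TPM for Wt1, and Wt1 was highest in all 6 libraries. The summed level of the 9 genes had its highest median in CHOW at 20 weeks, with 648 TPM (range 248 to 887), followed by CHOW at 8 weeks with 333 TPM (219 to 469), HFD at 8 weeks with 313 TPM (91.0 to 651), HFD at 34 weeks with 290 TPM (104 to 368), CHOW at 34 weeks with 261 TPM (136 to 632) and HFD at 20 weeks with 152 TPM (75.0 to 250). Every neighbouring pair in that order overlapped in range, and the places of the 34 week groups are a description only, since that table was made apart from the other. For 8 of the 9 genes the median was lowest in HFD at 20 weeks, and for 8 of the 9 it was highest in CHOW at 20 weeks. The exceptions were Wt1, whose median in HFD at 20 weeks was 3rd of the 6 groups, and Krt18, which was highest in HFD at 8 weeks.

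**Figure D1:**
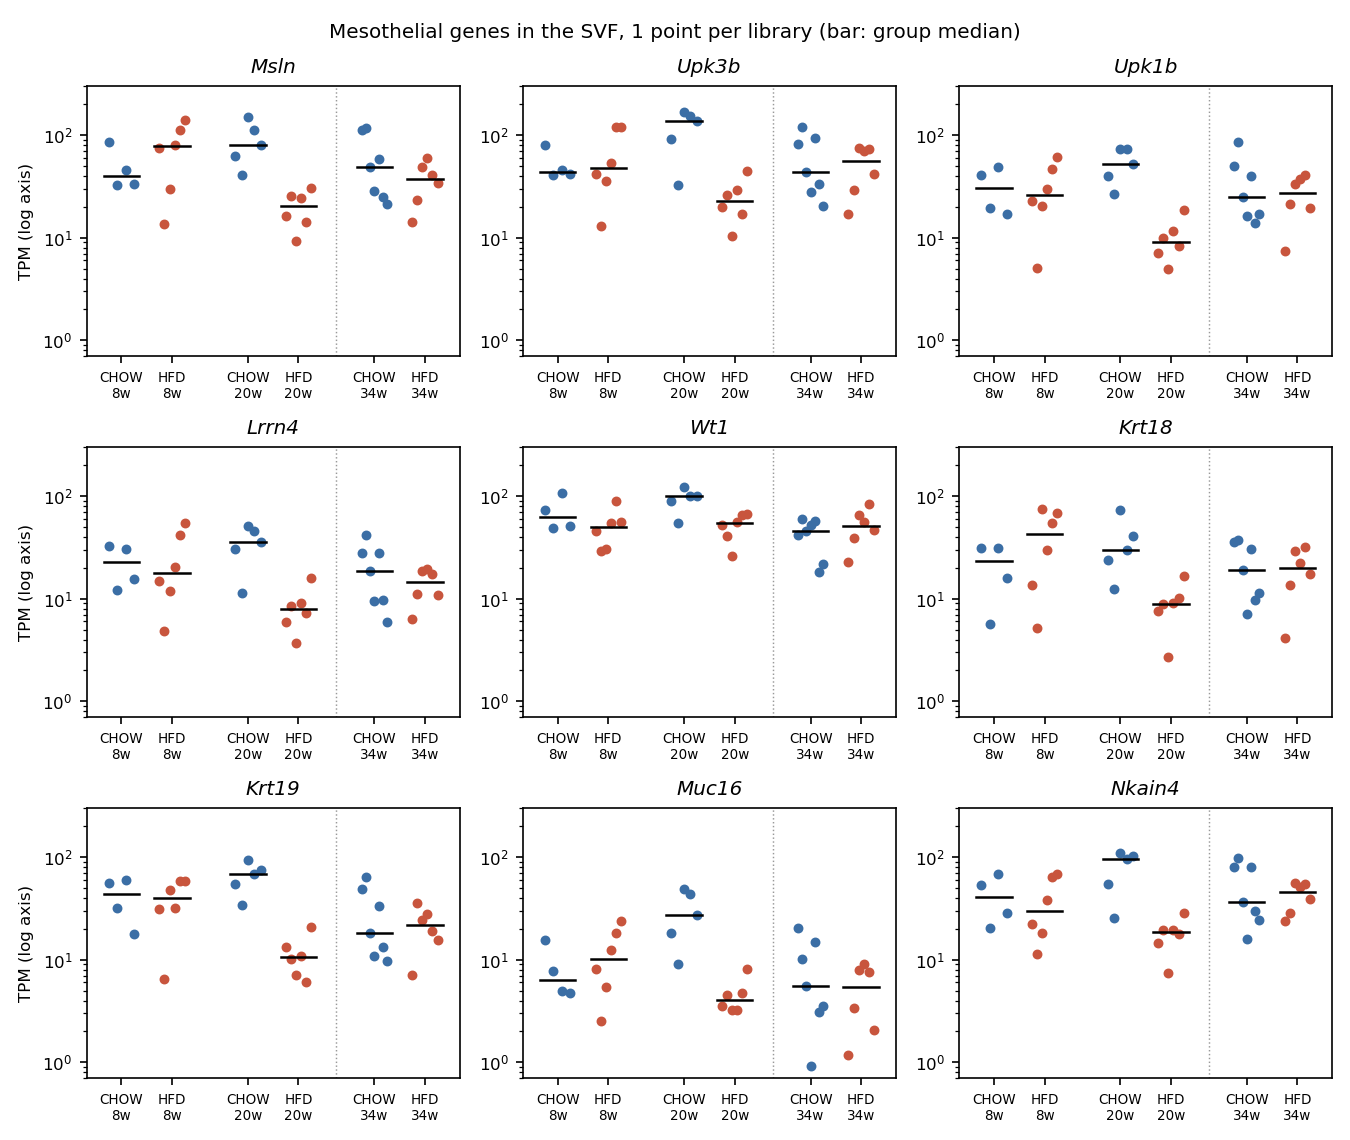
Level of each of the 9 mesothelial genes in TPM on a log axis, with 1 point per library, CHOW in blue, HFD in red and a bar at the group median; the dotted line separates the 34 week table from the other. At 20 weeks the HFD points of Msln, Upk1b, Krt19 and Muc16 all lie below the CHOW points, while at 8 and 34 weeks the diets overlap for every gene.

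Libraries of 1 group differed widely, and the genes went up and down together. HFD 8 week replicate 2 was the lowest library of its group for all 9 genes, CHOW 20 week replicate 2 for all 9 and HFD 34 week replicate 1 for all 9. The highest library of CHOW at 20 weeks was replicate 3 for all 9 genes and that of HFD at 20 weeks was replicate 6 for all 9. Between the highest and lowest library of a group, the summed level differed 7.15-fold in HFD at 8 weeks, 4.66-fold in CHOW at 34 weeks and 2.14-fold in CHOW at 8 weeks. To describe this without the group differences, each library's log2(TPM + 1) was set against its group mean. Over the 34 libraries, a gene's deviation followed the mean deviation of the other 8 genes with a Pearson r between 0.764 for Wt1 and 0.970 for Lrrn4. Spearman's rho was 0.761 for Wt1 and 0.980 for Lrrn4, and without the 2 libraries farthest from the median of that mean r was 0.724 and 0.970. All genes of a library share its total and its cells, so these values are a description.

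HFD and CHOW were first set against each other at 20 weeks, where the diet groups of these genes lay farthest apart. All 9 genes were lower in HFD, by 1.83-fold for Wt1 to 5.44-fold for Krt19 on the log2(TPM + 1) scale, and all 9 were called. Of the 16808 genes tested, 4.99% were called lower in this comparison, and the median log2 fold change was -2.05 for the 9 genes and 0.08 for all genes. Over all genes 1566 were called higher and 839 lower, a split that was 1648 to 1854 after quantile normalization, and the 9 genes were below 0 under every scaling tried. For Msln, Upk1b, Krt19 and Muc16 no HFD library reached the lowest CHOW library, which held in this direction for 3.69% of all tested genes. The 5 other genes overlapped.

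The cell surface pair of mesothelin and its mucin partner stood apart in every library. Msln, which encodes mesothelin, a glycoprotein tethered to the cell surface, was at 62.1, 40.5, 149, 112 and 79.7 TPM in the CHOW libraries and at a low of 9.33, a median of 20.3 and a high of 30.4 TPM in the HFD libraries. The groups did not overlap, and CHOW replicate 2 came nearest to the HFD range. Its log2 fold change was -2.05 (SE 0.48, limma adjusted p = 0.00794). Muc16, a very large membrane mucin that binds mesothelin, was at 18.2, 9.17, 48.4, 43.4 and 27.3 TPM in CHOW, and in HFD at a low of 3.21, a median of 4.06 and a high of 8.17 TPM. Here too every CHOW library exceeded every HFD library, again by the least in CHOW replicate 2 and HFD replicate 6. The log2 fold change was -2.29 (SE 0.45, limma adjusted p = 0.00257).

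Both uroplakins, membrane proteins of the rigid plaques of the bladder lining that mesothelial cells also make, were lower by a like amount. Upk1b, a tetraspanin, was at 40.0, 26.8, 73.4, 73.1 and 52.3 TPM in CHOW and at a low of 4.99, a median of 9.17 and a high of 18.6 TPM in HFD. Its groups stood apart, with a log2 fold change of -2.29 (SE 0.46, limma adjusted p = 0.00276). Upk3b, whose promoter is printed above, was at 90.9, 32.8, 168, 153 and 136 TPM in CHOW and at a low of 10.4, a median of 22.9 and a high of 44.9 TPM in HFD. CHOW replicate 2 fell inside the HFD range, and the other CHOW libraries lay above it. The log2 fold change was -2.13 (SE 0.49, limma adjusted p = 0.00729).

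Lrrn4 and Nkain4 encode membrane proteins, the first with leucine-rich repeats and the second a partner of the sodium pump. Lrrn4 was at 30.3, 11.4, 50.5, 45.2 and 36.1 TPM in CHOW and at a low of 3.71, a median of 7.90 and a high of 16.01 TPM in HFD. Nkain4 was at 54.3, 25.4, 110, 94.6 and 102 TPM in CHOW and at a low of 7.50, a median of 18.5 and a high of 28.2 TPM in HFD. In both genes the single overlap was between CHOW replicate 2 and HFD replicate 6. The log2 fold change was -1.88 (SE 0.48, limma adjusted p = 0.0147) for Lrrn4 and -1.98 (SE 0.46, limma adjusted p = 0.00772) for Nkain4.

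The keratins, acidic filament proteins of simple epithelia, gave both the largest difference between the diets and one of the least certain. Krt19 was at 54.5, 34.2, 92.6, 68.9 and 74.3 TPM in CHOW and at a low of 6.03, a median of 10.5 and a high of 20.7 TPM in HFD. The groups stood apart, and the log2 fold change was -2.44 (SE 0.45, limma adjusted p = 0.00135). Krt18 was at 23.97, 12.3, 72.6, 30.0 and 41.0 TPM in CHOW and at a low of 2.69, a median of 8.96 and a high of 16.6 TPM in HFD. It overlapped between CHOW replicate 2 and HFD replicate 6, and its log2 fold change was -1.78 (SE 0.59, limma adjusted p = 0.0488). Genes of other epithelia were scarce: 10 epithelial genes, Epcam and Cdh1 among them, summed to between 6.54 and 51.3 TPM in CHOW and between 2.36 and 8.97 TPM in HFD. Of the 6 that could be tested, 0 were called by limma. All 6 had a log2 fold change below 0, from -0.65 to -1.34 with a median of -0.93, against 0.08 for all genes. For 1 of the 6 every HFD library was below every CHOW library, as for 3.69% of all tested genes. An unadjusted p under 0.05 was found for 2 of the 6 epithelial genes and for 5121 of all 16808 genes tested.

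Wt1, the zinc finger factor of the mesothelium, differed least between the diets. It was at 90.2, 55.1, 121, 99.5 and 99.4 TPM in CHOW and at a low of 26.1, a median of 54.4 and a high of 66.2 TPM in HFD. CHOW replicate 2 lay inside the HFD range, and the other CHOW libraries lay above it. The log2 fold change was -0.87 (SE 0.29, limma adjusted p = 0.0494). Wt1os, an antisense gene on the other strand whose start lies 19 bases from that of Wt1, was at 3.97 to 9.08 TPM in CHOW and 1.73 to 4.97 TPM in HFD and was not called (log2 fold change -0.73, limma adjusted p = 0.161). The calls of Wt1 and Krt18 were the marginal ones. Leaving out 1 library at a time, Wt1 passed in 3 of 11 fits (those that left out CHOW replicate 2 or HFD replicate 5 or 6) and its highest adjusted p was 0.126, and Krt18 passed in 2 of 11 (without CHOW replicate 2 or HFD replicate 6), with a highest adjusted p of 0.137. The other 7 genes passed in all 11.

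**Figure D2:**
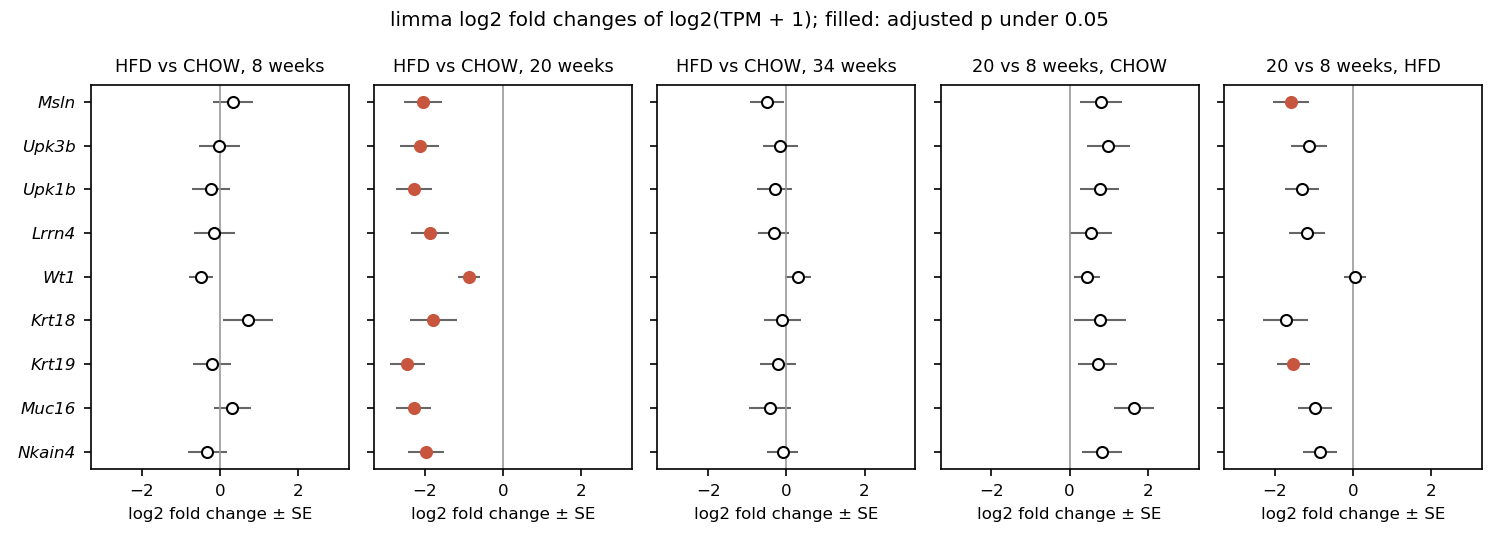
Log2 fold change of each mesothelial gene (points, with bars of 1 SE of the limma fit) in 5 comparisons, on the log2(TPM + 1) scale; filled points passed an adjusted p of 0.05. All 9 genes lie left of 0 and passed for HFD against CHOW at 20 weeks, from -0.87 for Wt1 to -2.44 for Krt19, and only Msln and Krt19 passed elsewhere, for 20 against 8 weeks on HFD.

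The comparison of HFD with CHOW at 20 weeks was extended to 32 further genes known from mesothelial cells. The filter was passed by 28 of them (Calb2, Upk3bl, Gata4 and Dsc3 did not pass). Of these 14 were called lower (15 without the 8 libraries named above) and 0 higher. All 28 had a log2 fold change below 0, with a median of -1.18. Of all 16808 genes tested, 4.99% were called lower, and their median log2 fold change was 0.08. The list was chosen with earlier results of these data known, so its counts are a description only. The largest differences among the 14 further genes called were in Slpi, Cxadr and Krt8. Slpi, a secreted inhibitor of proteases, was at 447 to 1173 TPM in CHOW and 68.0 to 256 TPM in HFD with no overlap (log2 fold change -2.08, SE 0.51, limma adjusted p = 0.0100). Cxadr, an adhesion receptor of tight junctions, was at 8.86 to 38.2 TPM in CHOW and 2.25 to 9.28 TPM in HFD (log2 fold change -2.08, SE 0.43, limma adjusted p = 0.00355). Krt8, the basic keratin that pairs with keratin 18, was at 26.3 to 123 TPM in CHOW and 7.23 to 28.7 TPM in HFD (log2 fold change -1.97, SE 0.54, limma adjusted p = 0.0211). The last 2 overlapped between groups.

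The other called genes of that list included nuclear factors (Bnc1, Gata6, Tcf21), the retinoic acid enzyme Aldh1a2, the secreted Wnt agonist Rspo1 and the cytoskeletal linker Ezr. Their log2 fold changes were -1.75 for Bnc1, -1.22 for Gata6, -1.45 for Tcf21, -1.14 for Aldh1a2, -1.27 for Rspo1 and -1.03 for Ezr. Among those not called were Krt7 (log2 fold change -1.26, adjusted p = 0.0721), Bcam (-0.78, adjusted p = 0.0889), Prg4 (-0.23, adjusted p = 0.765) and Tbx18 (-0.04, adjusted p = 0.907). Several genes of this list are also made by fibroblasts and progenitors of fat, so it is a broader set than the 9.

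Other cell types of the pellet were also measured at 20 weeks. Progenitor and fibroblast genes (10 genes, Pdgfra and Dcn among them) summed to a median of 14803 TPM in CHOW (11976 to 16361) and 14933 TPM in HFD (9772 to 18212), with 1 of 10 called higher and 3 called lower. Macrophage genes summed to a median of 4636 TPM in CHOW (4172 to 9862) and 9818 TPM in HFD (6951 to 12890), with 3 of 10 called higher and 1 lower. Erythroid genes summed to 57821 TPM in CHOW (27334 to 130031) and 14463 TPM in HFD (12622 to 30450), with 5 of the 7 tested called lower. Adipocyte genes summed to 6978 TPM in CHOW (5635 to 8115) and 5882 TPM in HFD (4814 to 6950). Of the 9 tested 5 were called lower, Pck1 (log2 fold change -2.23) and Retn (-2.12) among them, and Lpl was called higher (1.94). Germ cell genes summed to 47.4 TPM in CHOW (0.647 to 246) and 1314 TPM in HFD (19.2 to 12690), and 2 of the 9 tested were called higher, Ldhc (log2 fold change 3.98) and Tex101 (1.89). By the medians, macrophage and germ cell RNA thus took more and erythroid and adipocyte RNA less of the HFD libraries at 20 weeks. Without HFD replicate 5, the library with the most germ cell RNA, 8 of the 9 mesothelial genes were called lower (Krt18 was not), Msln with a log2 fold change of -1.98 and Krt19 with -2.30. That fit called 1797 of all 16808 genes tested. The fit that left out the 8 libraries in which other tissues stood out called all 9, and 2776 of all genes. HFD replicate 5 was the only 20 week library among the 8. Germ cell genes also summed to 2383 TPM in HFD replicate 3 and to 2994 TPM in replicate 4. With replicates 3, 4 and 5 all left out, which leaves 3 HFD libraries, all 9 log2 fold changes stayed below 0 (-0.78 for Wt1 to -2.09 for Muc16), and 3 genes were called, Upk1b (limma adjusted p = 0.0375), Krt19 (0.0324) and Muc16 (0.0383), while Msln had a log2 fold change of -1.75 (limma adjusted p = 0.0900). Of the further mesothelial genes 9 were then called, and of all 16808 genes tested 947 were. The part of macrophage, erythroid, adipocyte and Sertoli and Leydig cell RNA in the mesothelial values was not tested.

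**Figure D3:**
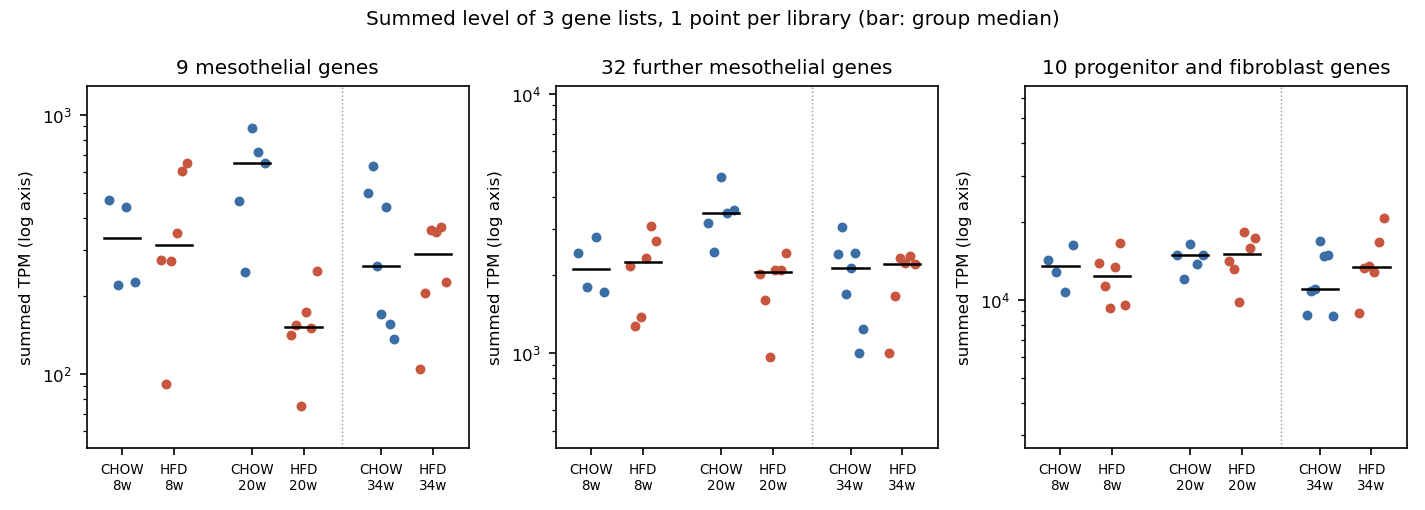
Summed level of 3 gene lists in TPM on log axes that span the same number of folds, with 1 point per library, CHOW in blue, HFD in red and a bar at the group median. At 20 weeks the median of the 9 mesothelial genes is 648 TPM in CHOW and 152 TPM in HFD, while that of the progenitor and fibroblast genes is 14803 TPM in CHOW and 14933 TPM in HFD.

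At 8 weeks the diets could not be told apart in any of the 9 genes. None was called by limma, where 0.0238% of the 16808 tested genes were. An unadjusted p under 0.05 was found for 0 of the 9 and for 1630 of all tested genes. Msln was at 86.1, 32.6, 45.8 and 33.2 TPM in CHOW and at a low of 13.7, a median of 77.5 and a high of 140 TPM in HFD, so that the HFD libraries enclosed the CHOW ones. Krt19 was at 55.4, 31.6, 59.8 and 17.8 TPM in CHOW and at a low of 6.45, a median of 39.6 and a high of 58.5 TPM in HFD. The 9 log2 fold changes ran from -0.47 (SE 0.31) for Wt1 to 0.72 (SE 0.63) for Krt18. Krt18 was at 74.0 TPM in HFD replicate 3, the library with the seminal vesicle genes, and at 5.16 to 67.6 TPM in the rest of its group. In that library Krt18 was the highest of the 9 genes, and Msln was at 29.5 TPM. Of the 28 further mesothelial genes tested, 0 were called by limma and 1 had an unadjusted p under 0.05.

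At 34 weeks the diets overlapped as well. None of the 9 genes was called by limma, in a comparison that called 0.243% of 13982 tested genes. An unadjusted p under 0.05 was found for 0 of the 9 and for 1848 of all tested genes. Msln ran from 21.5 to 117 TPM in CHOW with a median of 48.8, and from 14.3 to 60.3 TPM in HFD with a median of 37.6. Upk3b ran from 20.4 to 119 TPM in CHOW and from 17.1 to 74.6 TPM in HFD. The range of the 7 CHOW libraries thus held nearly all HFD values. Wt1 had the only log2 fold change above 0 (0.30, SE 0.33, limma adjusted p = 0.701), and Msln had the lowest (-0.51, SE 0.44, limma adjusted p = 0.613). Muc16 was at 0.933 TPM in CHOW replicate 4 and at 20.5 TPM in CHOW replicate 1. Of the 27 further mesothelial genes tested, 0 were called by limma and 1 had an unadjusted p under 0.05. The 34 week libraries were tested apart from the rest, and a difference between the diet effects of 20 and 34 weeks was not tested.

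The course over time was then followed on each diet from 8 to 20 weeks. On CHOW all 9 log2 fold changes were above 0, from 0.45 (SE 0.32) for Wt1 to 1.64 (SE 0.50) for Muc16, and none was called, where 0.613% of all tested genes were. Muc16 was at 15.4, 7.69, 4.98 and 4.71 TPM at 8 weeks and at 9.17 to 48.4 TPM at 20 weeks. An unadjusted p under 0.05 was found in limma for 2104 of all 16808 genes tested. Of the 9 genes Muc16 alone had one (limma unadjusted p = 0.00368, adjusted p = 0.139). With limma's weights for the quality of each library its log2 fold change was 1.86 and its adjusted p 0.0113.

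On HFD, Msln and Krt19 were called lower at 20 than at 8 weeks, in a comparison where 2.65% of tested genes were called lower. Msln had a median of 77.5 TPM at 8 weeks and 20.3 TPM at 20 weeks (log2 fold change -1.59, SE 0.46, limma adjusted p = 0.0345). Krt19 had a median of 39.6 TPM at 8 weeks and 10.5 TPM at 20 weeks (log2 fold change -1.53, SE 0.43, limma adjusted p = 0.0300). Both genes overlapped between the times: HFD 8 week replicate 2 was inside the 20 week range for both, and replicate 3 for Msln. Of the other 7 genes 6 had a log2 fold change below 0 and Wt1 stood at 0.05 (SE 0.28, limma adjusted p = 0.935), with a median of 50.2 TPM at 8 weeks and 54.4 TPM at 20 weeks. Among the further mesothelial genes 3 were called lower, Aldh1a2 (log2 fold change -1.18), Anxa8 (-1.31) and Bcam (-0.95), and 2 were without the 8 libraries named above.

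Genes of other cells also differed between these times on HFD. Of 7 erythroid genes tested 5 were called lower at 20 weeks, with a median log2 fold change of -2.08. Of 9 adipocyte genes 5 were called lower and 1 higher, and of 10 macrophage genes 3 were called higher and 1 lower. Progenitor and fibroblast genes had 1 of 10 called higher and 1 lower, and of 6 Sertoli and Leydig cell genes Cyp11a1 was called higher. The epithelial keratin Krt14 (log2 fold change -1.62), the endothelial receptor Tek (-0.72) and the smooth muscle actin Acta2 (-0.98) were called lower. All 9 germ cell genes tested had a log2 fold change above 0, with a median of 2.74. Of these 0 were called by limma and 4 had an unadjusted p under 0.05, as did 4571 of all 16808 genes tested. The part of these cells in the mesothelial values was not tested.

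The calls of mesothelial genes from 8 to 20 weeks on HFD were not stable to the choice of libraries. Without HFD 8 week replicate 2, 7 of the 9 genes were called, and without HFD 20 week replicate 6, 4 were. Of all 16808 genes tested, these fits called 1644 and 1807, against 1475 with all libraries. With HFD 8 week replicates 1, 5 or 6 or HFD 20 week replicates 3 or 5 left out singly, 0 were called, and 1 was called without HFD 8 week replicate 3 or 4 or HFD 20 week replicate 1. The fits with 0 called 932 to 1096 of all genes tested, and those with 1 called 1445 to 1842. Without the libraries in which other tissues stood out, 0 were called, Msln then having a log2 fold change of -1.45 (limma adjusted p = 0.111) and Krt19 one of -1.04 (limma adjusted p = 0.227).

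Whether the diet effect differed between 20 and 8 weeks was tested with the diet by time interaction. All 9 interaction terms were below 0, from -0.40 (SE 0.43) for Wt1 to -2.61 (SE 0.66) for Muc16, with a median of -2.12 against 0.18 for all genes. None of the 9 was called, and 0.297% of tested genes were. Muc16 came nearest (limma unadjusted p = 0.000766, adjusted p = 0.109), followed by Krt19 (adjusted p = 0.171) and Msln (adjusted p = 0.174). An unadjusted p under 0.05 was reached by 8 of the 9 and by 2318 of all 16808 genes tested. A difference between the diet effects at 20 and at 8 weeks was therefore not established at the chosen threshold. Without HFD 8 week replicate 2, the low library of its group, 4 of the 9 were called (Msln, Upk1b, Krt19 and Muc16), and without CHOW 20 week replicate 2 Muc16 alone was. Of all 16808 genes tested, these fits called 129 and 153, against 50 with all libraries. The comparisons share libraries, so their values are not independent of each other.

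Because Wt1 and the keratins are also made by other cells, their level was set against that of Msln within each library, as the log2 ratio of TPM + 1. At 20 weeks Wt1 was at 0.53, 0.44, -0.30, -0.17 and 0.32 relative to Msln in CHOW, and at a low of 0.65, a median of 1.28 and a high of 2.12 in HFD. All 6 HFD libraries thus stood above all 5 CHOW libraries. The mean was 0.16 ± 0.37 (SD, n = 5) in CHOW and 1.34 ± 0.50 (SD, n = 6) in HFD, a difference of 1.18 (two-sided exact permutation test over libraries, p = 0.00433, adjusted p = 0.0390 over the 9 ratios tested). At 34 weeks the difference was 0.80 (exact permutation p = 0.0344, adjusted p = 0.155), and at 8 weeks it was -0.82 (exact permutation p = 0.114, adjusted p = 0.206). The groups overlapped at both of these times.

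The keratins kept closer to Msln. Krt19 relative to Msln differed between HFD and CHOW by -0.55 at 8 weeks, -0.39 at 20 weeks and 0.30 at 34 weeks, and Krt18 by 0.37, 0.27 and 0.40. The lowest of these 6 adjusted p-values was 0.206 (exact permutation tests). Without HFD 8 week replicate 3, the library with the seminal vesicle genes, the 8 week difference of Krt19 was -0.85 (adjusted p = 0.0357 by the exact permutation test). That of Krt18 was then -0.08, and Krt18 relative to Msln was 1.30 in the library left out. The call for Wt1 at 20 weeks rests on few arrangements: with 1 HFD library left out, 5 against 5 libraries remain, and the adjusted p was 0.0714 for each of the 6 libraries, the smallest it can then be beside the other ratios. Without CHOW replicate 3 it was 0.129 and without CHOW replicate 4 it was 0.0857. The difference itself stayed between 1.03 and 1.32 in all 11 cases. Testis genes were higher in several HFD libraries. Sertoli and Leydig cell genes summed to 54.0 to 187 TPM in HFD and 46 to 52.6 TPM in CHOW at 20 weeks. Of the 6 tested, Cyp11a1 alone was called higher, as were 1566 of all 16808 genes tested. The median log2 fold change of the 6 was 0.40. Rhox5, Cyp17a1, Hsd17b3 and Fshr of that list did not pass the filter. The part of testis genes in the Wt1 ratio was not tested. Without HFD replicate 5 the difference was 1.03, and without HFD replicates 3, 4 and 5 it was 0.97 (exact permutation p = 0.0179, adjusted p = 0.155).

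**Figure D4:**
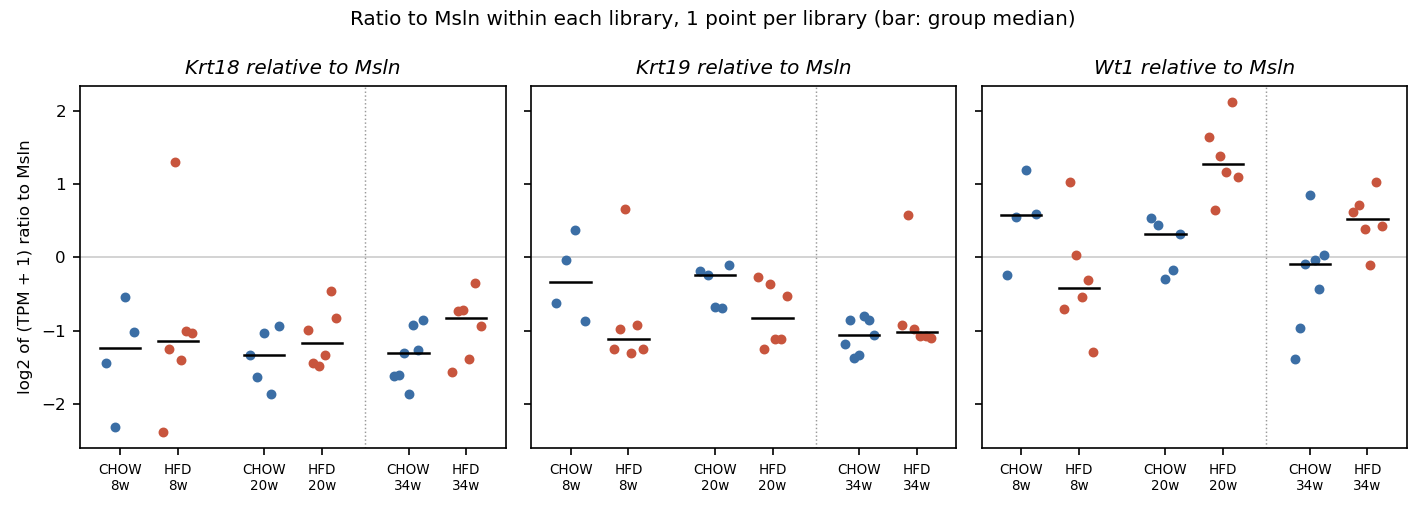
Log2 ratio of Krt18, Krt19 and Wt1 to Msln (TPM + 1) within each library, with 1 point per library, CHOW in blue, HFD in red and a bar at the group median; the dotted line separates the 34 week table. For Wt1 at 20 weeks the HFD points lie between 0.65 and 2.12 and the CHOW points between -0.30 and 0.53.

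The genes most like the set were sought among 13935 other genes that passed the filter in both tables, by the correlation of their deviations from the group means with the mean deviation of the 9 genes over the 34 libraries. The closest was Pkhd1l1 (Pearson r = 0.976, Spearman rho = 0.973), followed by Cxadr (r = 0.974, rho = 0.973), Gpm6a (r = 0.955, rho = 0.962), Fam180a (r = 0.936, rho = 0.909) and Rspo1 (r = 0.913, rho = 0.907). Without HFD 8 week replicate 2 and HFD 34 week replicate 1, the farthest from the median, r was 0.967, 0.964, 0.949, 0.913 and 0.886 in that order. Pkhd1l1 ran from 10.9 to 45.4 TPM in CHOW and from 2.31 to 10.8 TPM in HFD at 20 weeks, just short of an overlap. Cxadr, Gpm6a and Rspo1 were among the further mesothelial genes. As a whole that list of 27 genes followed the set with an r of 0.937 over the 34 libraries. For other lists r was 0.363 (progenitor and fibroblast), -0.192 (germ cell), -0.163 (macrophage), -0.128 (adipocyte), -0.105 (endothelial) and 0.110 (erythroid). It was -0.040 for Sertoli and Leydig cell genes and 0.019 for smooth muscle and pericyte genes. The epithelial list, with 2 genes that passed in both tables, was not compared. These genes were picked for their likeness, and libraries share totals across genes, so the values carry no p.

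All positions are GRCm38, counted from 1. Msln lies on chromosome 17 from 25748613 to 25754378, on the minus strand, 283 bases from its relative Mslnl, which did not exceed 1.06 TPM in any library. Upk3b lies on chromosome 5 (136038496 to 136046487), Upk1b on chromosome 16 (38773184 to 38800328), Krt19 on chromosome 11 (100140810 to 100148665) and Muc16 on chromosome 9 (18495455 to 18674530). Lrrn4 (132868305 to 132880891), Nkain4 (180934772 to 180954699) and Wt1 (105126529 to 105173616) share chromosome 2 but are far apart on it. Krt18 (102028180 to 102032027) lies on chromosome 15 next to Krt8 (101996698 to 102004482). The 9 genes are annotated as protein coding, and all values here are per gene, aggregated from its transcripts.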

How the data were processed

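RNA-seq libraries from a stranded poly(A) kit were checked by the authors with FastQC and MultiQC, trimmed with Trimmomatic and quantified with Salmon against gencode M10 (mm10), in versions not given in the sources used here. Gene-level TPM was deposited by the authors in separate tables, 1 with the 21 libraries of 8 and 20 weeks and 1 with the 13 libraries of 34 weeks. The authors' DESeq2 test used counts, which TPM does not give, and is not analysed here. TPM carries no depth, so no counting interval is possible.

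Groups came from the sample titles. Gene symbols and positions came from gencode M21 (31791 of 32098 IDs matched), whose gene limits may differ from the authors' release. Genes that reached 1 TPM in 4 libraries (8 and 20 weeks) or 6 libraries (34 weeks) were tested on log2(TPM + 1), a scale that understates changes of low genes, with limma 3.58.1 in R 4.3.3 (1 mean per group, moderated with a trend, two-sided). Each table was fitted alone, and all 21 libraries of the first shared 1 fit. Ratios used exact permutation tests in Python. The limma and permutation steps were tested on simulated data. The genes named are the 9 members, up to 3 called genes per list and comparison with the largest change, and the 5 most like the set; others named from the mesothelial list were picked after their values were seen. Members and lists were chosen with earlier results of these data known. Alternatives covered the pseudocount, filter, scaling, library weights, replicate block, groups fitted and libraries left out.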

Additional observations from a re-analysis of the deposited data

Results flagged for a closer look

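Among 72 sets of libraries (the 9 genes and 3 gene lists in each of 6 groups), 4 held a library that stood outside the rest of its group by Dixon's criterion, where chance gives about 1 in 20. Upk3b was at 80.7 TPM in CHOW 8 week replicate 1, against 45.9 TPM in the next library. Muc16 was at 8.17 TPM in HFD 20 week replicate 6, against 4.69 TPM in the next, and it stayed below every CHOW library of that time. The 10 epithelial genes summed to 51.3 TPM in CHOW 20 week replicate 3, against 13.2 TPM in the next library, and that was also the library in which all 9 mesothelial genes were highest in its group. The same list summed to 11.4 TPM in CHOW 34 week replicate 2, against 4.68 TPM in the next, where 8 of the 9 mesothelial genes were highest. No interaction of diet and time passed the threshold among the 9 genes.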

How the results depend on the processing

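The lower level in HFD at 20 weeks kept its direction for all 9 genes in every fit. Of the 9 genes, 7 to 9 were called under the other settings of the fit and with single libraries left out. Without the 3 HFD 20 week libraries with the most germ cell RNA (replicates 3, 4 and 5), a setting chosen after seeing the data that leaves 3 HFD libraries, 3 of the 9 genes and 9 further genes were called at 20 weeks, 0 and 1 from 8 to 20 weeks on HFD, and Wt1 relative to Msln differed by 0.97 at 20 weeks. Wt1 and Krt18 lost their call without the filter on low values (limma adjusted p = 0.0852 and 0.0887), which tests 27128 genes in place of 16808, and Krt18 with median-ratio scaling (adjusted p = 0.0508). The further mesothelial genes called there were 14, and 22 with quantile normalization, 23 with library quality weights and 11 to 17 with 1 library left out. The comparisons of HFD with CHOW at 8 and 34 weeks gave 0 of the 9 genes and 0 further genes in every fit. Over all genes, these fits called 0 to 209 at 8 weeks and 0 to 294 at 34 weeks. From 8 to 20 weeks on HFD, the 2 genes and 3 further genes called became 0 and 1 without a filter, 4 and 12 with quantile normalization, 3 and 9 with quality weights, 2 and 6 with median-ratio scaling, and 0 genes both with only the 2 groups fitted and without the libraries in which other tissues stood out; with 1 library left out they ran from 0 to 7 and from 1 to 9. On CHOW the counts were 0 except with quality weights, which called Muc16 (1 gene) and 6 further genes. The interaction called 0 and 0 in the reported fit, 4 and 9 with quality weights, 1 further gene each with quantile normalization, median-ratio scaling and without the libraries in which other tissues stood out, and 0 to 4 and 0 to 2 with 1 library left out. Over all genes, calls from 8 to 20 weeks on HFD numbered 1475 in the reported fit, 607 without HFD 20 week replicates 3, 4 and 5, and 866 to 2755 otherwise. On CHOW they numbered 103, and 1659 with quality weights. For the interaction they numbered 50, with 400 under quality weights and 13 to 153 with 1 library left out. The cause of these shifts was not tested.

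Relative to Msln, Wt1 at 20 weeks differed by 1.03 without the libraries in which other tissues stood out, where its adjusted p was 0.0714, and by 1.03 to 1.32 with 1 library left out. At 34 weeks it differed by 0.62 to 0.99 with 1 library left out, the highest without CHOW replicate 4 (exact permutation adjusted p = 0.0390). Krt19 at 8 weeks ran from -0.85 to -0.33, and Krt18 from -0.08 to 0.65. The pseudocount changed no call of a ratio.

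Scaling moved the split of all calls. From 8 to 20 weeks on HFD 1029 genes were called higher and 446 lower, against 1125 and 1630 with quantile normalization and 1443 and 998 with median-ratio scaling; for the interaction 27 and 23 became 18 and 86, and 30 and 55; at 8 weeks 0 and 4 became 4 and 3, and 5 and 3. Over all genes, the middle log2 fold change at 20 weeks was 0.08 in the reported fit and -0.05 with quantile normalization. Calls over all genes at 20 weeks numbered 2405 in the reported fit, 1253 to 5092 with other settings of the fit or 1 library left out, and 947 without replicates 3, 4 and 5.

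With the replicate number as a block, 9 of the 9 genes and 18 further genes were called at 20 weeks, 5 and 8 on HFD over time, and 0 and 0 elsewhere. Over all genes it called 3597 at 20 weeks and 1966 on HFD over time, against 2405 and 1475 without the block. The labels do not say that a number is shared between groups. CHOW and HFD libraries of the same time and number deviated together little (r from -0.105 to 0.214 over 15 pairs). Libraries of different times were not compared in this way. Whether the numbers pair the samples is therefore not known.

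TPM without depth and groups of 4 to 7 libraries limit these values. The replicate block was not run for the ratios, so a pairing by number is not accounted for there.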
